A study of Mus musculus with 56 samples.

Results

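The data compared microglia sorted from old wild-type mice with microglia sorted from young wild-type mice, across all expressed genes. The members were the libraries labelled as microglia of Trem2 wild-type mice, 7 old and 7 young, which are 14 of the 56 libraries of the series. All mice were female, carried wild-type Trem2 and were 2 months (young) or 16 to 18 months old (old). Brains were dissociated whole after perfusion with saline, viable cells positive for Cd11b were collected by fluorescence-activated cell sorting, and RNA of each mouse was made into a 3′ tag library with unique molecular identifiers. The 14 microglia libraries of homozygous Trem2 knockout mice, 7 young and 7 old and also female, were used only to set the ageing effect beside that in another genotype. The sources used here do not give the knockout allele or the strain. Each library came from 1 mouse, so the spread between libraries includes the spread between animals.

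Microglia are the resident macrophages of the brain. In the healthy adult brain they survey the tissue and depend on the growth factor receptor Csf1r and on TGF-beta for survival and identity. Near damaged or lipid-rich tissue they lower their surveillance genes and raise a set that includes Apoe, Tyrobp, Axl, Clec7a, Lpl, Cst7 and Spp1, called the disease-associated state, whose later stage is known to depend on the lipid receptor Trem2. Old microglia are known to take up myelin debris and to respond to interferon.

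The sort was checked against microglia markers. All 9 defining markers in the table that could be tested (P2ry12, Tmem119, Sall1, Siglech, C1qa, Cx3cr1, Csf1r, Fcrls and Aif1) were present, and their summed level was 23160 to 27430 CPM (counts scaled to the adjusted library total) in young and 19440 to 22980 CPM in old libraries, with no overlap. Of the 9, Cx3cr1, Csf1r and Fcrls fell and Aif1 rose. Total counts ran from 346698 to 1034874 in young and from 298688 to 711791 in old libraries, and did not differ past the threshold (mean difference -105500, exact permutation adjusted p = 0.4359). The share of counts on mitochondrial ribosomal RNA was 7.79 ± 1.06% in young and 9.80 ± 1.34% in old libraries (SD, n = 7, exact two-sided permutation test, adjusted p = 0.0245). By the same test the share on mitochondrial protein-coding genes also differed, at 4.56 ± 0.24% in young and 5.68 ± 0.69% in old libraries (adjusted p = 0.0047). The RNA integrity number did not, at 9.64 ± 0.48 in young and 9.81 ± 0.49 in old libraries (adjusted p = 0.63). RNA integrity was 8.7 in old animal 3, which also had the lowest total count and the highest astrocyte marker level of the old group (1178 CPM against at most 756.5). It was 8.8 in young animal 1, which had the highest total count, and 9.2 in young animal 25. Old animal 23 had the highest neutrophil and B cell marker levels, given with those genes below. Counts of changed genes are therefore also given without old animals 3 and 23, a choice made after the data were seen. Young animals 1 and 25 were left out only 1 at a time.

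More genes were higher than lower in old microglia. Of 7512 genes tested with edgeR's quasi-likelihood test, 383 passed an adjusted p of 0.05 (5.1%), of which 278 were higher (3.7%) and 105 lower (1.4%) in old microglia. The rises were also larger: 125 of them reached a log2 fold change of 1 (2 times the level) against 14 of the falls that reached -1. The median log2 fold change of all genes tested was -0.02. For 110 genes (1.46%) every old library lay above or below every young library, and 107 of these were among the 383. Without old animals 3 and 23 the count was 223, with 186 higher and 37 lower, and 218 of these were among the 383. Because the libraries are bulk samples, fewer cells of a type and less RNA per cell cannot be told apart.

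**Figure D1:**
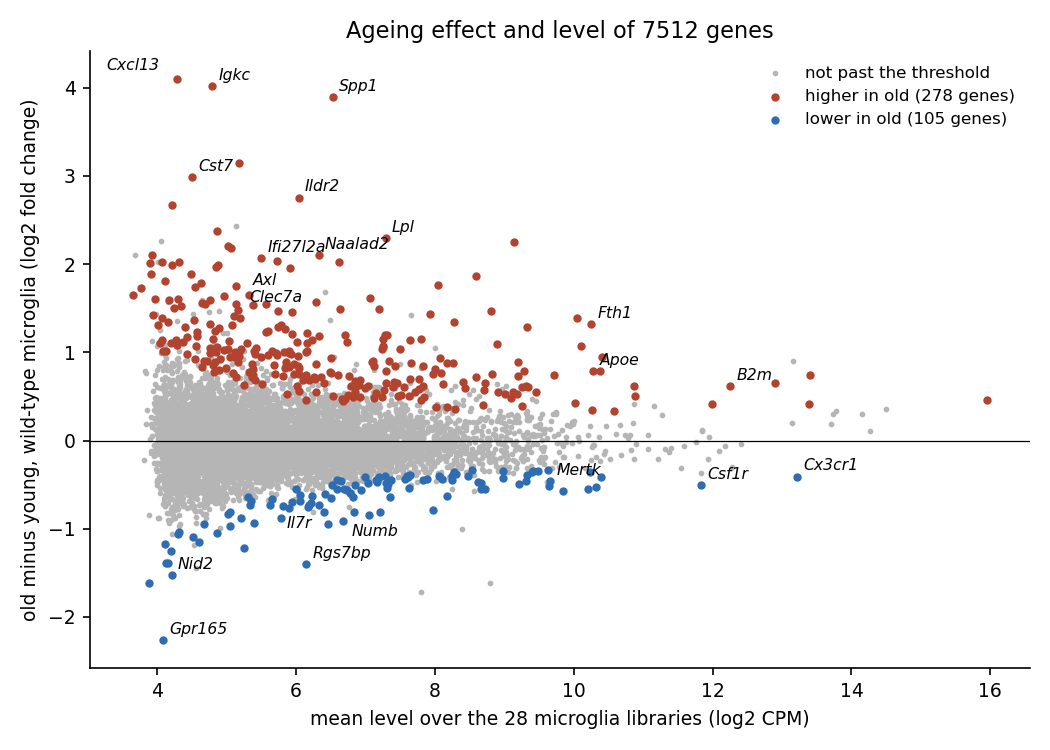
Log2 fold change of old against young wild-type microglia (vertical axis) against the mean level over the 28 microglia libraries (horizontal axis, log2 CPM), 1 point per gene tested. Red and blue points are the 278 genes higher and 105 genes lower in old microglia, grey points the genes not past the threshold. The rises reach further from 0 than the falls.

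Several of the largest rises were in secreted and surface proteins of the disease-associated state. Values below are CPM, given as the lowest, median and highest of the 7 libraries of a group. Fold changes are log2 ± standard error, which is the fold change's size divided by the square root of edgeR's F statistic. Spp1 (ENSMUSG00000029304.14, chromosome 5, 104435118 to 104441050, GRCm38), which encodes the secreted phosphoprotein osteopontin, was at 9.53, 17.4 and 47.9 CPM in young and 208, 345 and 512 CPM in old libraries. Its ages did not overlap, and the log2 fold change was 3.90 ± 0.28 (adjusted p = 2.1e-12). Lpl (ENSMUSG00000015568.16, chromosome 8, 68880491 to 68907448), the lipoprotein lipase that frees fatty acids from lipoproteins, was at 49.6, 85.8 and 132 CPM in young and 321, 425 and 567 CPM in old libraries (log2 fold change 2.30 ± 0.18, adjusted p = 1.2e-11). Again every old library exceeded every young one. Cst7 (ENSMUSG00000068129.5, chromosome 2, 150570415 to 150578944), which encodes cystatin F, an inhibitor of lysosomal proteases, was at 4.56, 7.18 and 12.6 CPM in young and 32.6, 54.1 and 94.5 CPM in old libraries (log2 fold change 2.99 ± 0.36, adjusted p = 4.7e-07).

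The surface receptors of this state rose from a base that was already detectable in young mice. Clec7a, the beta-glucan receptor dectin-1, was at 52.8, 55.4 and 64.6 CPM in young libraries, a narrow range, and at 138, 171 and 220.2 CPM in old libraries. Its log2 fold change was 1.57 ± 0.14 (adjusted p = 8.8e-10). Axl, a receptor kinase for dying cells, was at 19.1, 29.2 and 54.6 CPM in young and 92.9, 122 and 156 CPM in old libraries (log2 fold change 1.95 ± 0.21, adjusted p = 3.5e-08). Neither receptor overlapped between the ages. Itgax, the integrin chain CD11c, was at 1.91, 7.6 and 11.7 CPM in young and 10.9, 30.4 and 41.4 CPM in old libraries and overlapped in its extremes. Of the 20 tested members of the later disease-associated list, 11 rose (55%, against 3.7% of all genes) and 0 fell. The list had 9 members that did not pass the threshold and a median log2 fold change of 0.69. The other risers were Cd52 (1.43), Lgals3 (1.55), Csf1 (0.97), Cd63 (0.74) and Ank (0.64). Values of Cd9 (0.47, adjusted p = 0.076), Igf1 (0.65, adjusted p = 0.08) and Cd68 (0.21, adjusted p = 0.55) did not pass. Without old animals 3 and 23 the count of risers was 9, with Csf1 (adjusted p = 0.083) and Ank (adjusted p = 0.059) no longer past the threshold. Leaving out old animal 23 alone gave Csf1 an adjusted p of 0.055, and leaving out old animal 27 gave Ank one of 0.13.

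The early disease-associated genes, which are abundant at both ages, rose by smaller factors. Of 9 tested, 6 rose (66.7%, against 3.7% of all genes) and 0 fell, with a median of 0.62. Fth1, the ferritin heavy chain that stores iron, was at 449, 675 and 1000.3 CPM in young and 1413, 1908 and 1985 CPM in old libraries (log2 fold change 1.32 ± 0.15, adjusted p = 7.2e-08), with no overlap. Lyz2, lysozyme, was at 498, 752 and 1053 CPM in young and 1017, 1639.9 and 1967 CPM in old libraries (log2 fold change 1.07 ± 0.19). Apoe, the lipid-carrying apolipoprotein E, was at 729.7, 938 and 1443 CPM in young and 1256, 1806 and 2264 CPM in old libraries (log2 fold change 0.79 ± 0.14, adjusted p = 2.7e-04), and 1 young library lay inside the old range. Tyrobp, the signalling adaptor of Trem2, rose by 0.62 ± 0.17 (adjusted p = 0.02), although not without old animal 7 (adjusted p = 0.061). B2m and Ctsb made up the 6. Trem2 itself had a log2 fold change of 0.02 ± 0.17 (adjusted p = 0.97).

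**Figure D2:**
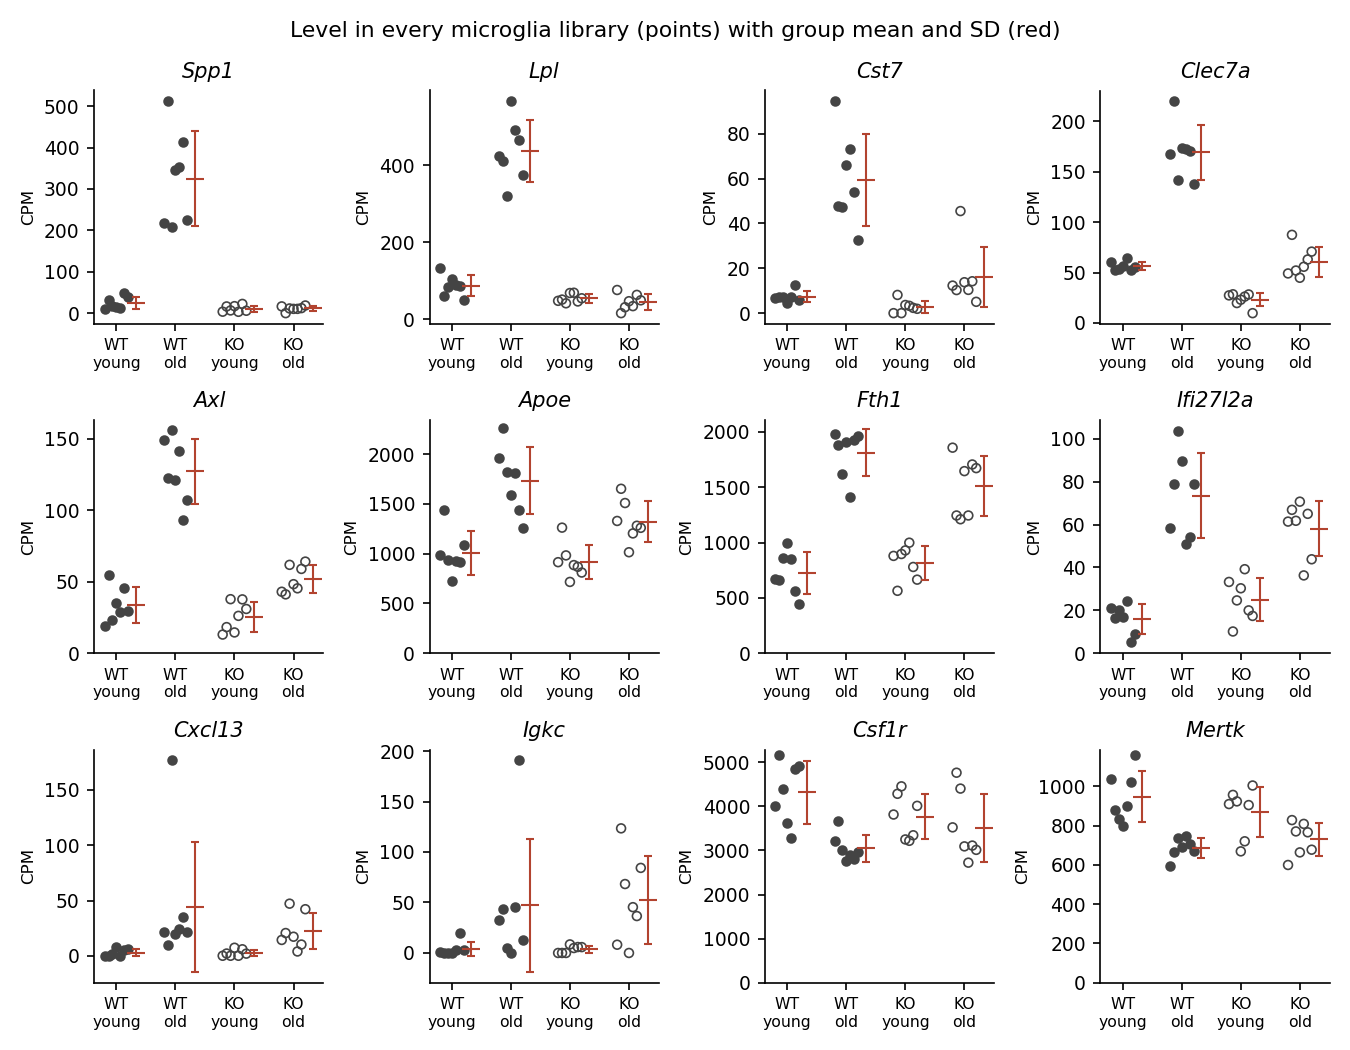
CPM of 12 genes (vertical axes) in every microglia library, with wild-type libraries as filled and Trem2 knockout libraries as open points, and the group mean and SD in red. For Spp1, Lpl, Cst7, Clec7a, Axl, Fth1, Ifi27l2a, Cxcl13 and Mertk the young and old wild-type libraries do not overlap.

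Outside the lists, several of the largest rises are not genes of the disease-associated state. Ildr2 (ENSMUSG00000040612.13, chromosome 1, 166254139 to 166316823), an immunoglobulin-domain membrane protein, was at 12.6, 15.2 and 29.1 CPM in young and 83.8, 131 and 168 CPM in old libraries (log2 fold change 2.75 ± 0.19, adjusted p = 8.3e-13). Naalad2 (ENSMUSG00000043943.14, chromosome 9, 18321951 to 18402995), a membrane peptidase of N-acetylated dipeptides, was at 23.3, 30.5 and 42.9 CPM in young and 105, 134 and 201 CPM in old libraries (log2 fold change 2.10 ± 0.18, adjusted p = 2.4e-10). Both genes separated the ages completely and, like Spp1 and Lpl, passed the threshold with each library left out. Mllt4, which encodes the adhesion protein afadin, was at 6.08, 10.1 and 23.3 CPM in young and 21.8, 55 and 69.6 CPM in old libraries, with young animal 25 at the edge of the old range (log2 fold change 2.19 ± 0.27). Crip1, a small LIM-domain protein, was at 0, 4.31 and 21.8 CPM in young and 15.1, 25.3 and 35.4 CPM in old libraries (log2 fold change 2.03 ± 0.44, adjusted p = 0.0032), with young animal 9 inside the old range. Its adjusted p was 0.051 with summed neutrophil markers as a covariate and 0.09 with lymphocyte and monocyte markers. Plac8, Camp, Ngp and Igkc, also among the 15 largest rises, mark other blood cells and are given with them below.

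The largest falls were in genes of modest level. Gpr165 (ENSMUSG00000031210.10, chromosome X, 96713441 to 96719388), an orphan G protein-coupled receptor, was at 8.75, 18.2 and 40.4 CPM in young and 0, 3.64 and 9.41 CPM in old libraries (log2 fold change -2.26 ± 0.42, adjusted p = 5.2e-04), so that only the edges of the groups overlapped. Rgs7bp (ENSMUSG00000021719.9, chromosome 13, 104945904 to 105054930), which anchors regulators of G protein signalling to the membrane, was at 57.8, 92.8 and 129 CPM in young and 16.9, 33 and 67 CPM in old libraries (log2 fold change -1.40 ± 0.20, adjusted p = 2.1e-05). Old animal 7 alone reached the young range. Il7r, a cytokine receptor chain, was at 87, 98.4 and 139 CPM in young and 26.3, 47.3 and 96.1 CPM in old libraries (log2 fold change -0.95 ± 0.18, adjusted p = 8.5e-04), where old animal 27 alone lay inside the young range. Numb, an inhibitor of Notch signalling, was at 87, 139 and 193 CPM in young and 62.1, 68.2 and 96.8 CPM in old libraries (log2 fold change -0.91 ± 0.15, adjusted p = 1.4e-04), with old animal 11 alone inside the young range. Adgrl2, the adhesion receptor latrophilin 2, fell by 0.97 ± 0.23, Klhdc8b by 0.94 ± 0.23 and Hbegf, a growth factor of the epidermal growth factor family, by 1.25 ± 0.35, each with no overlap. With neutrophil markers as a covariate Gpr165 had a value of -1.46 (adjusted p = 0.16). Adgrl2 had an adjusted p of 0.097 with that covariate and 0.2 with lymphocyte and monocyte markers, and Klhdc8b of 0.17 and 0.13. Rgs7bp, Il7r and Numb passed with either covariate.

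Some of the other large falls depended on 1 or 2 libraries. Arhgap32, a regulator of small GTPases, fell by 1.16 ± 0.27 (adjusted p = 0.0075). It passed with each single library left out, but had an adjusted p of 0.064 without old animals 3 and 23. Nid2, a basement membrane protein, fell by 1.52 ± 0.37 (adjusted p = 0.01), and had an adjusted p of 0.053 without young animal 1. The call of Hbegf was lost without any 1 of 4 libraries, with an adjusted p of up to 0.06 (without old animal 15). The calls of Mdfi (-1.39), Rn7sk (-1.39), Gpsm1 (-1.18), Ip6k2 (-1.05), Trp53cor1 (-0.94) and Nup85 (-0.88) were each lost without any 1 of 4 to 9 libraries. The highest adjusted p among these was 0.13, for Rn7sk without old animal 27.

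Some homeostatic genes fell, by small factors from high levels. Of 28 tested members of the homeostatic list, 6 fell, 1 rose and 21 did not pass. The share past the threshold was 25%, against 5.1% of all genes, and the median log2 fold change was -0.18. Csf1r, the growth factor receptor on which microglia depend, was at 3275, 4399 and 5166 CPM in young and 2759.6, 2959.7 and 3674 CPM in old libraries (log2 fold change -0.50 ± 0.12, adjusted p = 0.01). Mertk, a receptor kinase for dying cells related to Axl, was at 799.6, 902 and 1158 CPM in young and 593, 692 and 745 CPM in old libraries (log2 fold change -0.46 ± 0.11, adjusted p = 0.0061). Mertk separated the ages and Csf1r did not. P2ry13, a nucleotide receptor, was at 1391, 1519 and 1620.0 CPM in young and 946, 1164 and 1302 CPM in old libraries, also without overlap (log2 fold change -0.42 ± 0.10). Fcrls (-0.52 ± 0.13), the fractalkine receptor Cx3cr1 (-0.41 ± 0.11) and the transcription factor Mef2c (-0.35 ± 0.10) fell with overlapping groups. The one rise was Cst3, the secreted protease inhibitor cystatin C, at 3509, 6389.5 and 7238 CPM in young and 7311, 8250.1 and 11609 CPM in old libraries (log2 fold change 0.65 ± 0.15). P2ry12 (-0.21, adjusted p = 0.42), Tmem119 (-0.31, adjusted p = 0.25) and the identity factor Sall1 (-0.35, adjusted p = 0.13) had values below 0 that did not pass.

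Some of these calls depended on 1 or 2 libraries. Without old animals 3 and 23, Csf1r and Mertk were the 2 homeostatic genes still past the threshold in that direction. With the summed level of neutrophil markers as a covariate their adjusted p was 0.067 and 0.052. The 1 homeostatic gene that fell in that fit was not among the 6 above, which all lost their call. With lymphocyte and monocyte markers the 1 that fell was Fcrls (adjusted p = 0.026). Without old animals 3 and 23, P2ry13 (adjusted p = 0.056), Fcrls (adjusted p = 0.053), Cx3cr1 (adjusted p = 0.12) and Mef2c (adjusted p = 0.13) did not pass. Leaving out old animal 23 alone was enough for Cx3cr1 (adjusted p = 0.052) and Mef2c (adjusted p = 0.056) to lose the call. Of 15 tested genes of TGF-beta signalling, which maintains microglial identity, the transducer Smad3 fell (-0.41 ± 0.13, adjusted p = 0.046) and 14 did not pass. That share (6.67%) was near the 5.1% of all genes. The call of Smad3 was lost without any 1 of 12 libraries, with an adjusted p of up to 0.12 (without young animal 21).

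Single genes of lipid handling rose and 0 fell. Of 21 tested genes of lipid uptake, lipolysis and storage, 3 rose (14.3%, against 3.7% of all genes) and 0 fell, with a median of -0.01. They included Lpl and Soat1, which esterifies cholesterol for storage. Soat1 was at 49.6, 113 and 116 CPM in young and 133, 158 and 198 CPM in old libraries (log2 fold change 0.69 ± 0.15, adjusted p = 0.0027), without overlap. The droplet coat gene Plin2 (-0.01), the lysosomal lipase Lipa (-0.01) and the scavenger receptor Cd36 (-0.23) did not pass. Among 12 tested genes of cholesterol transport and efflux 3 rose (25%), with a median of 0.15. These were Apoe, Soat1 and the lysosomal cholesterol carrier Npc2 (0.48). The efflux pumps Abca1 (0.01) and Abcg1 (0.08) did not pass. Of 9 in the list of cholesterol synthesis 2 rose (22.2%) and 0 fell, with a median of 0.29. Among them Cyp51, a demethylase of the pathway, rose by 1.18 ± 0.30 (adjusted p = 0.014). Without old animal 23 the adjusted p of Cyp51 was 0.058.

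By its median, the list of lysosomal genes lay close to all genes tested. Of 44, 4 rose (9.09%, against 3.7% of all genes) and 0 fell, with a median of 0.09. The largest rise was in Psap, the precursor of the saposins that help degrade sphingolipids, at 74.7, 403 and 622 CPM in young and 538, 892 and 1012 CPM in old libraries (log2 fold change 1.29 ± 0.28, adjusted p = 0.0041), with overlap. The others were the membrane protein Cd63, Npc2 and the protease Ctsb. Npc2 had an adjusted p of 0.082 without old animal 7. The call of Ctsb (0.34 ± 0.10, adjusted p = 0.042) was lost without any 1 of 10 libraries, with an adjusted p of up to 0.087 (without old animal 7). Proteases such as Ctsd (-0.11), Ctss (0.30) and Ctsl (0.21) did not pass.

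Several genes of antigen presentation by MHC class I rose. Of 18 tested, 8 rose (44.4%, against 3.7% of all genes), 0 fell and 10 did not pass, 4 of them with values below 0. The median was 0.61. B2m, the shared light chain of class I molecules, was at 3480.2, 4062 and 4582 CPM in young and 5108, 6639 and 7126 CPM in old libraries (log2 fold change 0.62 ± 0.11, adjusted p = 3.3e-04). The heavy chain H2-D1 was at 171, 231 and 279.9 CPM in young and 314, 352 and 520.5 CPM in old libraries (log2 fold change 0.88 ± 0.16, adjusted p = 4.6e-04). Both separated the ages, as did the heavy chain H2-Q7 (2.01 ± 0.31) and the immunoproteasome subunit Psmb8 (0.68 ± 0.14). H2-K1, H2-Q4, H2-M3 and the proteasome activator Psme1 made up the 8, and H2-Q4 had an adjusted p of 0.050 without young animal 1. With the summed neutrophil markers as a covariate 4 rose, and with lymphocyte and monocyte markers 3. The class I heavy chain genes are closely related, and the sources used here do not say how shared reads were assigned. Of 7 class II genes 1 rose (14.3%), H2-Aa (0.89 ± 0.18, adjusted p = 0.0021). The other 6 had positive values that did not pass, and the median was 0.57. H2-Eb1 (0.64, adjusted p = 0.064) and the invariant chain Cd74 (0.52, adjusted p = 0.18) were among them. With neutrophil markers as a covariate H2-Aa had a value of 0.54 (adjusted p = 0.14). With lymphocyte and monocyte markers it had 0.47 (adjusted p = 0.29).

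Most interferon-stimulated genes had higher values in old microglia, and fewer passed the threshold. Of 32 tested, 7 rose (21.9%, against 3.7% of all genes) and 0 fell. Positive values were seen in 27 of the 32, against 3599 of all 7512 genes, and the median was 0.50. Ifi27l2a (ENSMUSG00000079017.3, chromosome 12, 103442167 to 103443680), a small mitochondrial protein induced by type I interferon, was at 5.05, 16.7 and 24.4 CPM in young and 50.8, 79 and 104 CPM in old libraries (log2 fold change 2.07 ± 0.24, adjusted p = 3.1e-07). Sp100, a nuclear body protein, also separated the ages, at 17.4, 35 and 54.6 CPM in young and 59.8, 70.2 and 87.3 CPM in old libraries (adjusted p = 0.0013). The other risers were Gbp2 (1.34), Ifi204 (1.11), Ifitm3 (0.89), Ifi207 (0.72) and Lgals3bp (0.65). The classical targets Ifit1 (1.13, adjusted p = 0.1) and Isg15 (0.74, adjusted p = 0.19) did not pass. Summed over the whole list, the level was 1483 to 2347 CPM in young and 2305 to 3040 CPM in old libraries, with old animal 19 lowest and inside the young range. Without old animals 3 and 23, 5 members rose and the median was 0.38.

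Interferon-stimulated genes are known to be switched on through a promoter element bound by complexes of STAT and IRF factors. The 250 bases before each RefSeq start (GRCm38.p6) were searched on both strands for GAAANNGAAA. It was found before 16 of the 32 listed interferon-stimulated genes that have a RefSeq promoter entry (50%), before 3 of 20 class I presentation genes (15%) and before 936 of all 27025 genes (3.46%). Among the tested genes with an entry it stood before 16 of 198 called higher (8.08%), 4 of 76 called lower (5.26%) and 185 of all 5654 (3.27%). The promoters of Gbp2, Ifi207 and B2m, which rose and hold the element, are shown as examples, 5′ to 3′ on the gene's strand, with the element in capitals (a match on the reverse strand in Gbp2). Not all risers hold it: of the interferon-stimulated risers with an entry 2 of 5 hold the element, and of the class I risers 1 of 8. Of the interferon-stimulated genes that did not pass, 10 of 19 hold it. A match describes the letters and shows no binding.
Gbp2 (chr3:142620413-142620662, plus strand): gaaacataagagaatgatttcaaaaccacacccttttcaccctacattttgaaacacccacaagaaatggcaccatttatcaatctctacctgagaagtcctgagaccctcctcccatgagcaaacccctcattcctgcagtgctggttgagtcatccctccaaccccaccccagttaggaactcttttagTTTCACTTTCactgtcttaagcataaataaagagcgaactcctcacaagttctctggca
Ifi207 (chr1:173741810-173742059, minus strand): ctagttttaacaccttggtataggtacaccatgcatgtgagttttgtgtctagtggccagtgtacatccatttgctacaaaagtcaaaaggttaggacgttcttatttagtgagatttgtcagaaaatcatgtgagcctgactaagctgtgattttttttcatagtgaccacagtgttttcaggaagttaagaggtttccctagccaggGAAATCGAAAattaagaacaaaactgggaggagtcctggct
B2m (chr2:122147437-122147686, plus strand): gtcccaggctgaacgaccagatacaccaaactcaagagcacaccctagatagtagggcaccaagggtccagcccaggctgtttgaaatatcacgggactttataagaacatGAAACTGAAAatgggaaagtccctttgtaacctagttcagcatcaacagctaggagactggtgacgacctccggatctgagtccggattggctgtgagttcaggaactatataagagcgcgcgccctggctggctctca

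In these windows, counted from the RefSeq start, the element began 59.0 bases before the start of Gbp2, 41.0 before that of Ifi207 and 139.0 before that of B2m. No GENCODE transcript was found to begin near the RefSeq start for Gbp2 or Ifi207, so those distances hold for RefSeq only. Gbp2, a guanylate-binding protein of host defence, was at 2.92, 8.58 and 13.1 CPM in young and 12, 18.9 and 30.4 CPM in old libraries (adjusted p = 0.0057). Ifi207, a nuclear protein of the interferon-inducible 200 family, was at 32.8, 50.8 and 99.1 CPM in young and 64, 98 and 124 CPM in old libraries (adjusted p = 0.027), and its call was lost without any 1 of 6 libraries (adjusted p of up to 0.075, without young animal 1). Ifi207 belongs to a family of near-identical genes, so its value is uncertain.

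Chemokine genes moved in both directions. Of 24 tested chemokines and receptors, 4 rose and 2 fell (25% in either direction, against 5.1% of all genes). Cxcl13 (ENSMUSG00000023078.6, chromosome 5, 95956951 to 95961068), an attractant of B cells, had the largest fold change among the genes named by the rule and was at 0, 1.45 and 7.6 CPM in young and 9.57, 21.8 and 177 CPM in old libraries (log2 fold change 4.10 ± 0.72, adjusted p = 2.8e-04). The highest old value was that of animal 11, and without it the adjusted p was 0.0018. The chemokines Ccl8 (1.96 ± 0.39), Ccl5 (1.48 ± 0.33) and Ccl12 (1.15 ± 0.31) rose, and Ccl9 (-0.75 ± 0.18) fell beside Cx3cr1. For Ccl12 the call was lost without any 1 of 4 libraries, with an adjusted p of up to 0.064 (without old animal 23).

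The list of cytokines, the inflammasome and NF-kB changed about as often as all genes. Of 25 tested, 0 rose and 1 fell, Il7r (4% in either direction, against 5.1% of all genes). Tnf had a value of 0.87 ± 0.29 (adjusted p = 0.072) and Il1b one of 0.58 ± 0.29 (adjusted p = 0.29). Of 11 complement genes 2 rose (18.2%, against 3.7% of all genes), Itgax and the C1q-binding protein Cd93 (0.98 ± 0.24). The median was 0.04. The abundant C1q chains C1qa (-0.10), C1qb (-0.16) and C1qc (0.04) did not pass. Of 27 phagocytic and pattern receptors, 6 rose and 1 fell (25.9% in either direction, against 5.1% of all genes). The risers not yet given were the Fc receptor chain Fcer1g (0.43 ± 0.11), the lipid receptor Cd300lf (1.02 ± 0.28) and the lectin Cd209f (0.95 ± 0.26). The adjusted p was 0.081 for Cd300lf without young animal 1 and 0.058 for Cd209f without old animal 3. The scavenger receptor Msr1 (0.58, adjusted p = 0.2) did not pass.

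Iron, oxidant and matrix genes each held a few changed members. The share past the threshold was 13.3% of iron, 17.4% of oxidant and 30.8% of matrix genes, against 5.1% of all genes. Of 15 iron genes, Fth1 rose and Slc25a37, the importer of iron into mitochondria, fell from 45.9, 61.9 and 73 CPM in young to 23.4, 37.6 and 45.5 CPM in old libraries (log2 fold change -0.74 ± 0.18), without overlap. The ferritin light chain Ftl1 (-0.05) did not pass. Of 23 genes of oxidant defence and production 4 rose and 0 fell. Cybb, the catalytic subunit of the superoxide-producing NADPH oxidase, was at 83.6, 98.6 and 119.6 CPM in young and 151, 207 and 286 CPM in old libraries (log2 fold change 1.04 ± 0.16, adjusted p = 8.3e-05), without overlap. The other 3, Txn1, Prdx5 and Gpx1, encode antioxidant proteins. Prdx5 had an adjusted p of 0.085 without young animal 1, and Gpx1 of 0.071 without young animal 21. Of 13 matrix and adhesion genes, Spp1, fibronectin Fn1 (1.59 ± 0.37) and the hyaluronan receptor Cd44 (1.41 ± 0.29) rose and Nid2 fell. Fn1 had an adjusted p of 0.34 with neutrophil markers and 0.15 with lymphocyte and monocyte markers as a covariate, and Cd44 of 0.089 and 0.23. Fn1 is itself among the summed monocyte markers, so the fit with that covariate cannot judge it.

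Genes used as marks of senescence and division were mostly not past the threshold. The share past it was 14.3% of senescence and 25% of division genes, against 5.1% of all genes. Of 14 senescence and arrest genes 2 rose and 0 fell. Among them Lmnb1, the lamin that is known to fall in senescent cells, rose by 0.96 ± 0.22 (adjusted p = 0.0048), which is the opposite direction to that of the list's name. Lmnb1 had an adjusted p of 0.24 with neutrophil markers as a covariate, and also with lymphocyte and monocyte markers. The arrest gene Cdkn1a had a value of 0.30 (adjusted p = 0.61), and Cdkn2a was not tested because of its low counts. Of 8 division genes, Top2a (1.28 ± 0.34) and Hmgb2 (1.06 ± 0.29) rose and 0 fell. Without old animals 3 and 23 neither was past the threshold (adjusted p = 0.083 and 0.075), nor was Top2a without old animal 23 alone (0.054) or Hmgb2 without old animal 27 alone (0.079). Immediate early and heat shock genes respond to cell dissociation. Of 22 immediate early genes 0 passed in edgeR, with 4 at an unadjusted p under 0.05, 1 past the threshold in DESeq2 and 0 in voom. Of 11 heat shock genes 0 passed in edgeR, with 4 at an unadjusted p under 0.05 and 0 in DESeq2 and voom. Of all 7512 genes tested, 1352 had an unadjusted p under 0.05 in edgeR. The summed level of the immediate early genes was 28740 to 39380 CPM in young and 23230 to 41590 CPM in old libraries.

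**Figure D3:**
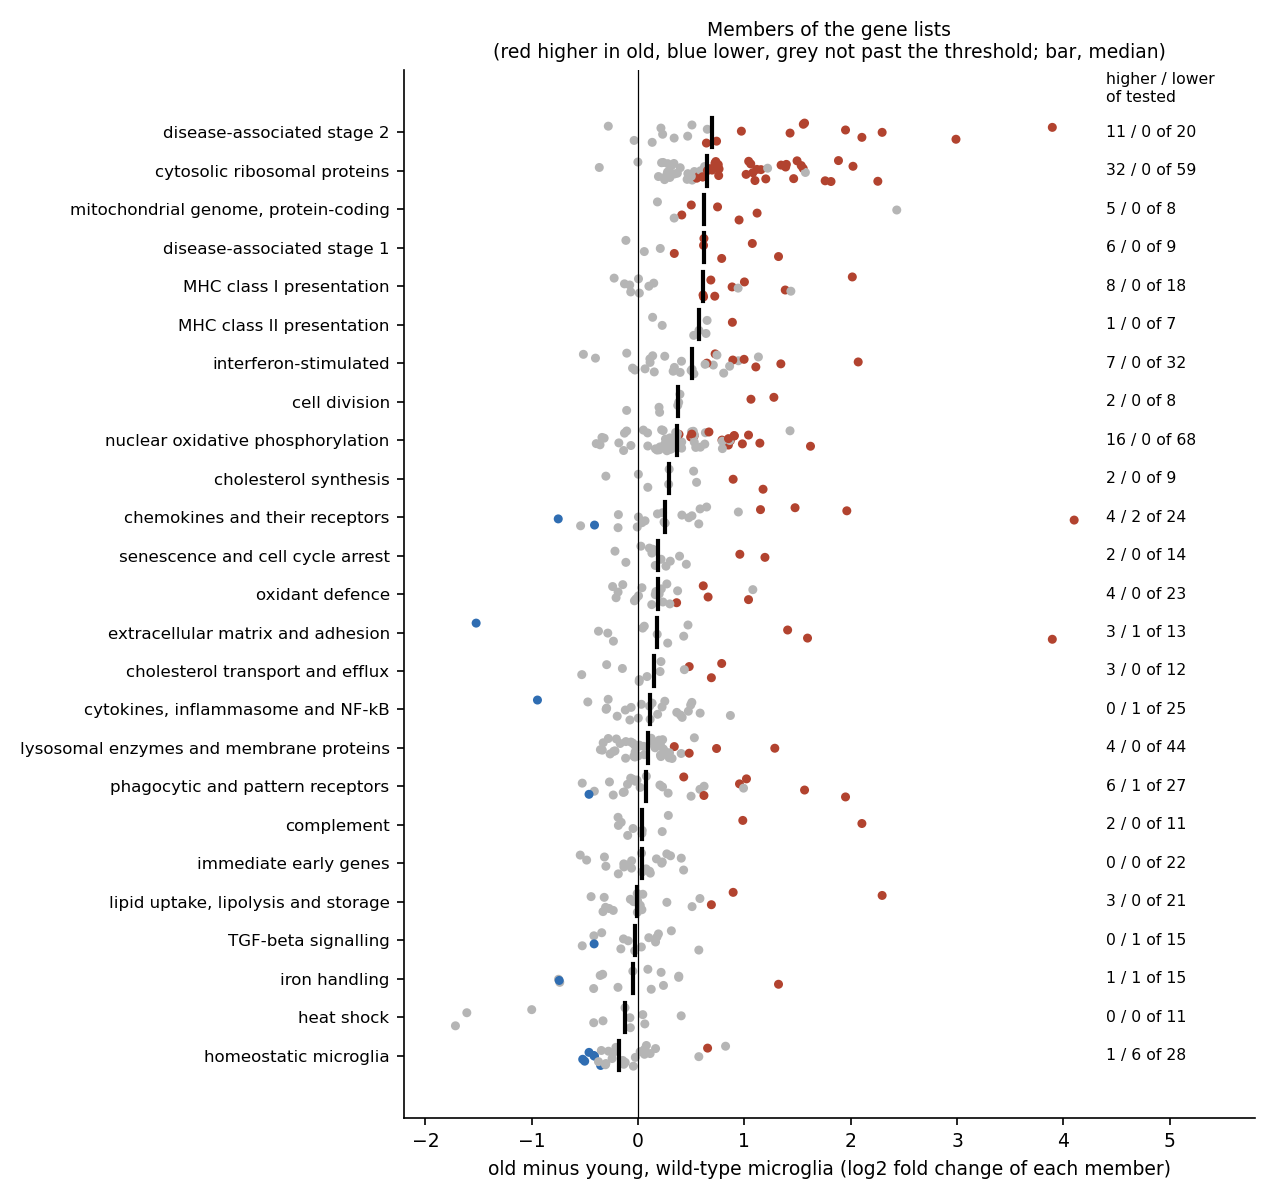
Log2 fold change of every tested member (horizontal axis) of each gene list (rows), with members that rose in red, members that fell in blue, members not past the threshold in grey and the list median as a black bar. The text at the right gives members higher and lower of those tested. Of the lists drawn, the later disease-associated list has the highest median (0.69) and the homeostatic list the lowest (-0.18).

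Genes of the ribosome and of the respiratory chain gave the most risers by number, in the largest lists. Of 59 tested genes of cytosolic ribosomal proteins, 32 rose (54.2%, against 3.7% of all genes) and 0 fell. Positive values were seen in 57 of the 59, against 3599 of all 7512 genes, and the median was 0.65. Rps24 was at 193, 273 and 435 CPM in young and 571, 649 and 727 CPM in old libraries (log2 fold change 1.10 ± 0.15, adjusted p = 8.6e-06). Rpl4 was at 431, 487 and 587 CPM in young and 647, 828 and 848 CPM in old libraries (log2 fold change 0.61 ± 0.10, adjusted p = 1.3e-04). Rps24, Rpl4 and Rps21 (1.39 ± 0.21) were among 13 of the 59 whose ages did not overlap, against 1.46% of all genes. Ribosomal protein genes have many processed copies, and the sources used here do not say how reads matching several copies were counted, so these values are uncertain.

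As a share of all counts, ribosomal protein genes took 0.781 to 1.22% in young and 1.47 to 1.64% in old wild-type microglia, with no overlap. The wild-type astrocyte libraries of the series had medians of 0.256% in young and 0.240% in old. Of 68 nuclear genes of oxidative phosphorylation 16 rose (23.5%, against 3.7% of all genes) and 0 fell, with a median of 0.37. Cox8a and Cox6b1, subunits of cytochrome oxidase, rose by 1.15 ± 0.20 and 0.85 ± 0.14 without overlap. Of 8 protein-coding mitochondrial genes 5 rose (62.5%) and 0 fell, with a median of 0.62. Among them mt-Cytb, cytochrome b, was at 5769, 9095 and 10394 CPM in young and 11262, 13694 and 17152 CPM in old libraries (log2 fold change 0.75 ± 0.13, adjusted p = 3.2e-04), without overlap. With mitochondrial and ribosomal protein genes left out before scaling, 327 genes passed, all among the 383. Without old animals 3 and 23, 23 ribosomal, 10 nuclear respiratory and 5 mitochondrial genes rose.

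Many of the genes that rose have short transcripts. For 7203 of the 7209 tested protein-coding genes a transcript length was available, and genes called higher had a median length of 1083 bases, against 2449 for those called lower and 2276 for those not called. When genes were ordered by length into 5 equal bins, 124 genes rose (8.61%) and 15 fell (1.04%) in the bin of the shortest. Its median log2 fold change was 0.07. In the bin of the longest 21 rose and 21 fell (1.46% each), with a median of -0.07. Of all genes tested 3.7% rose and 1.4% fell. Across genes the Spearman correlation of length with the ageing effect was -0.163 in wild-type microglia, -0.211 in knockout microglia and -0.137 in wild-type microglia without ribosomal and respiratory genes (7076 genes), given as a description because genes are not independent. For each library, the median level of the shortest bin minus that of the longest, each gene centred over libraries and ribosomal and respiratory genes left out, was -0.227 to 0.0594 on the log2 scale in young and -0.0438 to 0.262 in old microglia, with overlap. Its medians in wild-type astrocytes were -0.0094 in young and 0.0042 in old. The part of transcript length in the rises was not tested.

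**Figure D4:**
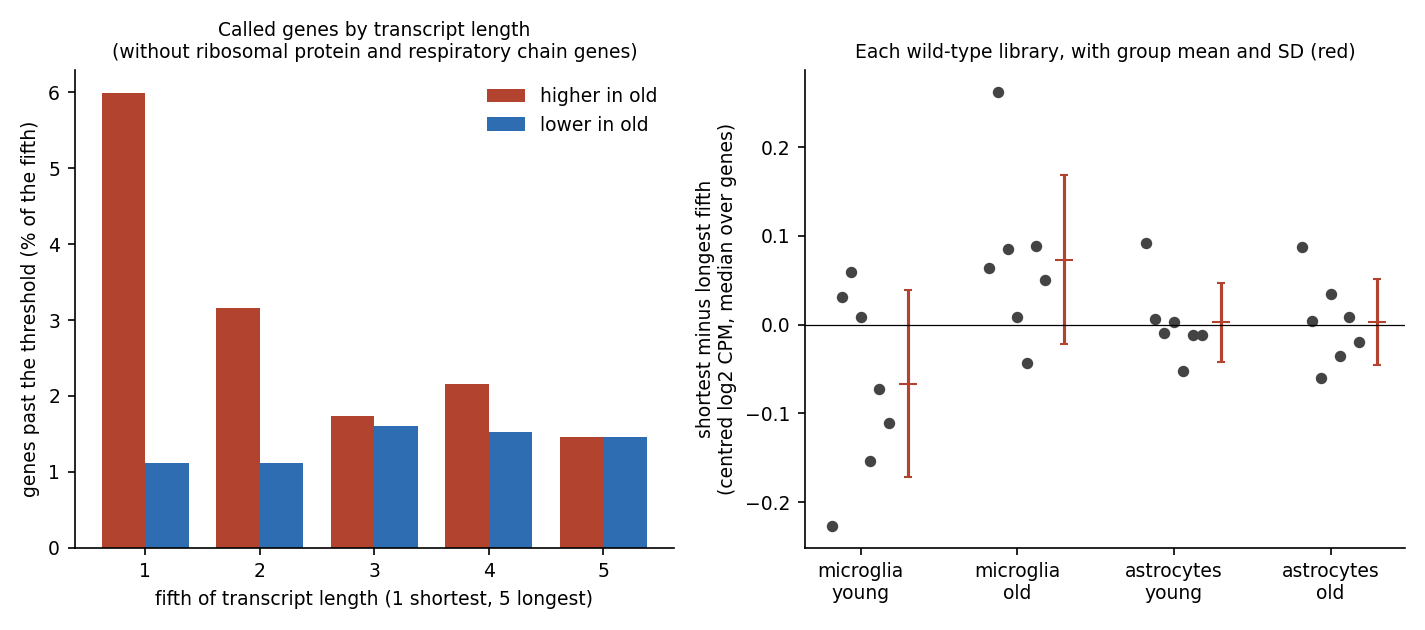
Left, the percent of genes called higher (red) and lower (blue) in old microglia (vertical axis) by 5 bins of transcript length (horizontal axis), without ribosomal protein and respiratory chain genes. Right, the difference between the shortest and the longest bin in each wild-type library (points, log2 scale), with the group mean and SD in red. The shortest bin has 5.99% higher and 1.12% lower, the longest 1.46% of each.

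Neutrophil markers were higher in old libraries. Of 7 tested neutrophil genes 5 rose (71.4%, against 3.7% of all genes) and 0 fell, with a median of 1.49. The summed level of neutrophil markers was 350.7 to 684.6 CPM in young and 861 to 4103 CPM in old libraries. The groups did not overlap, and the highest value was that of old animal 23, the next being 1517 CPM. S100a8, a calcium-binding protein abundant in neutrophils, was at 111, 166 and 207 CPM in young and 288, 350.0 and 1546 CPM in old libraries (log2 fold change 1.87 ± 0.40, adjusted p = 0.0032), and without animal 23 had an adjusted p of 0.025. The granule genes Camp (2.21 ± 0.64) and Ngp (2.04 ± 0.61) were no longer past the threshold without that animal (adjusted p = 0.3 and 0.33), nor were S100a9 (adjusted p = 0.25) and Retnlg (adjusted p = 0.11).

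Igkc (ENSMUSG00000076609.2, chromosome 6, 70726435 to 70726966), the constant region of the kappa light chain, was at 0, 0.953 and 20.2 CPM in young and 0, 32.7 and 191 CPM in old libraries. Old animal 23 was highest, 1 old library had none, and the log2 fold change was 4.02 ± 0.89 (adjusted p = 0.0041, and 0.058 without animal 23). The summed B cell level was 234 to 409 CPM in young and 255 to 684 CPM in old libraries. The B cell receptor subunit Cd79a was at 0 in all 14 libraries, as were the T cell genes Cd3g and Trac. Of 2 tested genes of T and NK cells 1 rose, Ccl5. Plac8, a gene of monocytes and other leukocytes, was at 2.87, 3.04 and 5.46 CPM in young and 2.39, 25.3 and 46.5 CPM in old libraries (log2 fold change 2.67 ± 0.54). Of 4 monocyte genes, Plac8 and Fn1 rose and Ccr2 (0.18) did not pass, and the summed level was 128 to 193 CPM in young and 141 to 463 CPM in old libraries. Of the border macrophage genes 1 of 10 rose, Cd209f, and Mrc1 (-0.03) and Lyve1 (-0.21) did not pass. Of the oligodendrocyte genes 2 of 6 rose, the myelin genes Mbp (0.93 ± 0.19) and Mobp (1.04 ± 0.29). Their summed level was 394 to 767 CPM in young and 408 to 1016 CPM in old libraries, and Mobp had an adjusted p of 0.078 without old animal 7. Of the endothelial genes 1 of 3 rose, Flt1 (1.31 ± 0.34), with an adjusted p of 0.050 without young animal 1. The shares that rose were 50% of T and NK cell and of monocyte genes and 10% of border macrophage genes. They were 33.3% of oligodendrocyte and of endothelial genes, against 3.7% of all genes, and each list had few tested members. Astrocyte (6 tested), neuron (5), dendritic cell (2), red cell (1), platelet (1) and choroid plexus (1) genes had 0 past the threshold in edgeR, DESeq2 and voom. An unadjusted p under 0.05 in edgeR was seen for 3 of these 16, against 1352 of all 7512 genes.

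The number of calls was lower with these marker levels in the model. With the summed neutrophil level as a covariate 151 genes passed, 119 higher and 32 lower, of which 141 were among the 383. With the summed level of lymphocyte and monocyte markers 121 passed, 99 higher and 22 lower, of which 113 were among the 383. Both levels were higher in old libraries, so a covariate also takes up part of the age difference, and their part in the calls was not tested. The later disease-associated list had 10 risers with either covariate, and the ribosomal list 17 and 15. The class I list had 4 and 3, the interferon-stimulated list 3 and 3, and the homeostatic list 1 fall and 1 fall. With the neutrophil covariate that fall was in a homeostatic gene not called in the main fit. Spp1, Lpl, Cst7, Clec7a, Axl, Apoe, Fth1, B2m, Psap and Cybb passed in all 12 alternative fits that leave out no single library, and with each library left out.

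The ageing effect in Trem2 knockout microglia was fitted from other libraries and had the same sign for most genes. Trem2 was at 99.3 ± 28.9 CPM in young and 116 ± 31.5 CPM in old knockout libraries, against 465 ± 127 and 470.1 ± 101 in wild-type libraries (mean ± SD, n = 7). The allele is not given, so whether the remaining 3′ tags lie outside its deleted part is not known. In knockout microglia 136 genes passed (1.81%), 122 higher and 14 lower. The 2 sets shared 91 genes, which are 23.8% of the wild-type and 66.9% of the knockout calls, all in the same direction. Of the 383 genes called in wild-type mice 371 (96.9%) had the same sign in knockout mice, against 65.3% of all genes tested. The median log2 fold change of the 278 rises was 0.95 in wild-type and 0.56 in knockout microglia, and that of the 105 falls -0.55 and -0.23. The wild-type values chose these genes, so their larger size there is no finding. Interferon-stimulated genes had 9 risers of 32 in knockout microglia and class II genes 4 of 7.

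Spp1 and Lpl alone differed between the genotypes in their ageing effect past the adjusted threshold (0.0266% of genes, edgeR interaction test; 354 genes had an unadjusted p under 0.05). With no filter on low counts 25 genes passed, these among them. In knockout microglia Spp1 was at 10.7 ± 7.67 CPM in young and 11.3 ± 5.89 CPM in old libraries (log2 fold change 0.15 ± 0.45), and the ageing effect in wild-type exceeded that in knockout mice by 3.75 ± 0.56 (adjusted p = 2.5e-04). Lpl was at 53.7 ± 10.7 CPM in young and 44.9 ± 20.3 CPM in old knockout libraries (log2 fold change -0.22 ± 0.22), a difference in ageing effect of 2.51 ± 0.28 (adjusted p = 7.7e-07). Both rose with age in wild-type mice and not past the threshold in knockout mice.

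Most other risers of the disease-associated lists also rose in knockout microglia. Of the 6 risers of the early list 5 passed there, and of the 11 of the later list 6. Besides Spp1 and Lpl, those that did not pass were Tyrobp (0.37 ± 0.17, adjusted p = 0.34), Csf1 (0.80 ± 0.28, adjusted p = 0.16), Cd63 (0.58 ± 0.17, adjusted p = 0.065) and Ank (0.45 ± 0.20, adjusted p = 0.31). In knockout microglia the log2 fold change was 2.60 ± 0.50 for Cst7, 1.30 ± 0.18 for Clec7a, 1.68 ± 0.30 for Lgals3, 0.89 ± 0.14 for Fth1 and 1.05 ± 0.23 for Axl, each past the threshold. The level of Clec7a in old knockout libraries was 60.4 ± 14.8 CPM, against 56.5 ± 4.34 CPM in young wild-type libraries. Ildr2 (2.96 ± 0.20), Naalad2 (2.12 ± 0.19), Gpr165 (-2.55 ± 0.41) and Rgs7bp (-1.25 ± 0.19) also changed in knockout mice, with wild-type values of 2.75, 2.10, -2.26 and -1.40. Of the 6 homeostatic genes that fell in wild-type mice 0 passed in knockout mice (edgeR), where the values ran from -0.27 for Fcrls (adjusted p = 0.41) to -0.10 for Csf1r (adjusted p = 0.83). None of these differences between genotypes passed the adjusted threshold, which does not show that the genotypes aged alike.

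**Figure D5:**
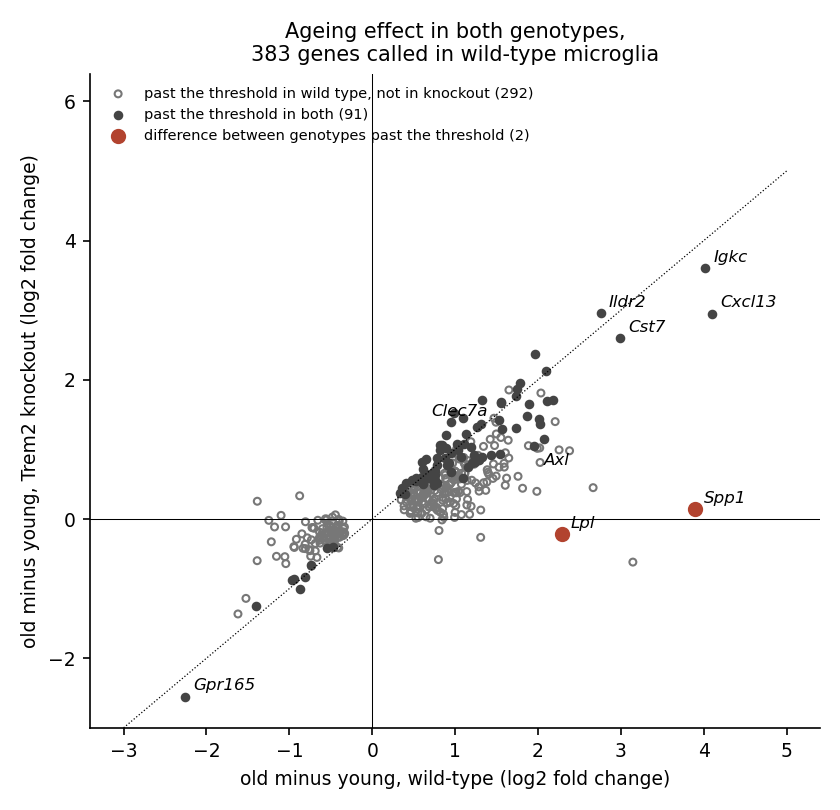
Ageing effect in Trem2 knockout (vertical axis) against that in wild-type microglia (horizontal axis), both log2 fold changes of old against young, for the 383 genes called in wild-type microglia. Filled points passed the threshold in both genotypes (91), open points in wild-type only (292), and the 2 red points, Spp1 and Lpl, differed between genotypes. The dotted line marks equal effects, and 244 of the 278 rises and 101 of the 105 falls were larger in wild-type microglia, whose values chose the genes.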

How the data were processed

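The values analysed were the whole-number counts per gene deposited by the authors, 53801 Ensembl gene identifiers in 56 columns, with no normalization. The submitters' processing notes name the build GRCm38.p6 and the tools STAR, MultiQC, FastQC 0.11.5 and R 3.4.3. The sources used here do not give the counting program, its annotation and use of strand, or whether reads sharing a unique molecular identifier were collapsed. Gene positions came from GENCODE M21 (53620 identifiers matched), and promoter sequences from RefSeq (GRCm38.p6). A 3′ tag count carries no gene length, so levels are compared between libraries and not between genes.

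The 28 microglia libraries were fitted together in edgeR 4.0.16 (R 4.3.3) with 1 mean per group, TMM scaling, filterByExpr, the quasi-likelihood test and Benjamini-Hochberg adjustment over 7512 genes at 0.05. CPM are scaled by the TMM library sizes. Normalisation factors were 0.926 to 0.998 in old and 1.01 to 1.05 in young wild-type libraries. Technical measures were compared by exact two-sided permutation over all 3432 splits of 7 against 7. Over 42 pairs of replicate libraries the chi-square per degree of freedom ran from 2.05 to 7.81, so no pair agreed within sampling noise. The models were tested on simulated counts with known changes.

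The members, the gene lists, the tests and the naming rule were chosen with earlier results of these data known. Genes named are the 15 largest rises and 15 largest falls past the threshold (mean log2 CPM 3 or more, proper symbol), those that differed between genotypes, and members of the lists described. A few of them are not reported here. Alternatives were DESeq2 1.42.0, limma-voom (limma 3.58.1) with quality weights, RLE scaling, keeping genes of low counts, and covariates for RNA integrity (RIN), for sets of consecutive animal numbers, and for summed neutrophil, lymphocyte and monocyte, and immediate early levels. Further ones were mitochondrial and ribosomal genes left out, wild-type libraries only, and each library left out in turn. A fit without old animals 3 and 23 was added after seeing the data.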

Additional observations from a re-analysis of the deposited data

Results flagged for a closer look

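In 146 checks of groups of 7 libraries (the named genes, list sums and technical measures), 23 had a highest or lowest library far from the next; chance flags about 1 in 20 such groups. Neutrophil and B cell genes of old animal 23 were the most frequent, with 4103 CPM for the summed neutrophil markers, 684 CPM for the B cell markers, 191 CPM for Igkc, 157 CPM for Camp and 248 CPM for Ngp. Old animal 3 had the lowest RNA integrity number, 8.7, and the highest astrocyte (1178 CPM) and platelet (50.9 CPM) marker levels of its group.

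Among the other old libraries, animal 11 was highest for Cxcl13 (177.0 CPM) and Numb (96.8 CPM). Animal 7 was highest for Rgs7bp (67.0 CPM), for the later disease-associated genes (7226 CPM) and for red cell genes (76.6 CPM). Animal 19 was highest for Arhgap32 (22.6 CPM) and lowest for the interferon-stimulated genes (2305 CPM).

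Among young libraries, animal 21 was highest for Igkc (20.2 CPM) and Cst7 (12.6 CPM), animal 25 for Mllt4 (23.3 CPM), animal 9 for Crip1 (21.8 CPM) and animal 17 for Il7r (139 CPM). Animal 13 was highest for heat shock genes (7627 CPM, the next at 3864). Animal 5 was highest for platelet (63.8 CPM) and choroid plexus genes (517 CPM).

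The ageing effects of Lpl (wild-type minus knockout 2.51 on the log2 scale) and Spp1 (3.75) differed between genotypes by the edgeR interaction test.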

How the results depend on the processing

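The count of 383 genes moved by over 1.5 times to 151 with the neutrophil covariate, 121 with the lymphocyte and monocyte covariate and 223 without old animals 3 and 23. It was 268 to 483 in the other alternatives, and 280 (without old animal 23) to 427 (without young animal 13) with 1 library left out. The count of genes differing in ageing effect between genotypes was 2, and 25 with no filter on low counts (20 higher, 5 lower), 3 with voom or with sets of animal numbers, and 2 to 3 with 1 library left out; Spp1 and Lpl were among them in each fit. With the neutrophil covariate the values of Camp (-0.0198) and S100a9 (-0.258) were below 0. Both genes are part of that summed level, so the fit cannot judge their own change. Of the values of single genes 323 were no longer past the threshold in 1 of the other alternatives and 266 with 1 library left out, against 1414 and 1862 that were. With 1 library left out the difference in total counts ran from -152600 to -37860, in RIN from 0.03095 to 0.3571, in mitochondrial ribosomal RNA from 1.677 to 2.379 and in mitochondrial protein-coding share from 0.9078 to 1.288 percentage points, each on the same side of the threshold. No paired analysis was possible because young and old mice share no animal number. Sets of 4 consecutive numbers, which no label describes as a batch, gave 483 genes as a covariate (350 higher, 133 lower). At 298688 to 1034874 counts per library, genes of low level can be tested only for large changes.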
